A study of Drosophila melanogaster with 4 samples.

Results

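A total of 70 neurons stood out in these libraries for very high levels of a neuropeptide transcript, and they are described here as peptide-high neurons. A neuron was a cell with at least 1 UMI (a unique molecular identifier, which marks 1 captured RNA molecule) of *nSyb*, the neuronal synaptobrevin, and none of *dpn*, the neural stem cell factor Deadpan. It was peptide-high if at least 1 of 8 neuropeptide genes, *Nplp1*, *Dh31*, *AstA*, *Ms*, *Crz*, *Dh44*, *Lk* and *Mip*, reached 30 UMIs per 10000 UMIs of the cell. The rule took 70 of 1952 neurons, among 3567 cells with 200 to 6000 detected genes and at most 5% mitochondrial UMIs, of 4152 cells in all. The other 1882 neurons served for comparison. The cells were thus chosen by the measured levels of these 8 peptides, of *nSyb* and of *dpn*, which are given as a description, with no test.

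Neuropeptides are made as large precursors that enter the secretory pathway, are cut by prohormone convertases such as Amontillado, are often amidated at their ends, and are stored in dense core vesicles until calcium releases them. In the fly nervous system they are made by small and stereotyped sets of neurons, many of which can be named by the peptide they carry. Several of these sets lie in the ventral nerve cord, where Hox genes set their segmental position and the basic helix-loop-helix factor Dimmed raises the capacity for peptide storage.

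The cells were from *Drosophila melanogaster* carrying *wor*-GAL4 and UAS-mCD8-GFP, with 2 libraries from stage 17 embryos, when neural stem cells (NSCs) are quiescent, and 2 from larval brains at 24 h after larval hatching (ALH), when NSCs reactivate. GFP-positive, propidium iodide-negative cells were sorted and profiled on the 10x platform at the 3′ end. The driver is active in NSCs, so a neuron was kept only if it still carried GFP. The first stage 17 library used v2 chemistry and the other 3 used v3, so chemistry varied within stage 17 only. No treatment was given, and how many animals were pooled is not stated in the sources used here. The source tissue is labelled brain, yet many of the cells below held *Antp*, *Ubx* or *Abd-B* RNA, Hox genes whose domains lie in the nerve cord.

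The libraries held 482 to 1565 called cells and 2219533 to 53458971 UMIs in those cells. Replicates are labelled as biological, and the p-values below measure the spread between these libraries. Scrublet marked 42 of the 3567 kept cells as doublets, 1 of them peptide-high. The second stage 17 library shared 12 cell barcodes with the first 24 h library and 1 with the second, and none was that of a peptide-high cell. *elav*, a pan-neuronal RNA-binding protein, was found in 65 of the 70 peptide-high neurons, the glial factor *repo* in 2 and the NSC factor *wor* in 1. The summed level of 10 neuronal markers was 211 to 223 UMIs per 10000 in the peptide-high cells of the 4 libraries. In the other neurons it was 158 to 244. These sums describe the class as a whole, and the neuronal label of each single cell was not tested.

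Peptide-high neurons made up a small share of neurons in every library. They were 11 of 263 neurons in the first stage 17 library (4.18%, exact binomial 95% interval 2.11 to 7.36) and 38 of 1049 in the second (3.62%, 2.58 to 4.94). At 24 h ALH they were 9 of 219 (4.11%, 1.90 to 7.66) and 12 of 421 (2.85%, 1.48 to 4.93). The means were 3.90% ± 0.396 at stage 17 and 3.48% ± 0.890 at 24 h ALH (SD, n = 2), and the ranges of the stages overlapped. With 2 libraries against 2, the smallest p of an exact two-sided permutation test is 0.333, so none was run. These intervals cover counting error only. The rule cut through a continuous range of levels: 9 members lay between 30 and 35 UMIs per 10000, and 12 neurons lay between 25 and 30. The lowest member was at 30.1 and the highest of the other neurons at 29.9, while 23 members exceeded 100.

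Which peptide led differed between the stages. The leading peptide of a cell, the one of the 8 with the highest level, was *Dh31* in 33 cells, *Nplp1* in 15, *AstA* in 8, *Lk* in 6, *Ms* in 3, *Mip* in 3 and *Crz* and *Dh44* in 1 each. Cells led by *Dh31*, which encodes a calcitonin-like diuretic hormone, came from all 4 libraries (5 and 10 cells at stage 17, 8 and 10 at 24 h ALH). *Nplp1*-led cells came only from stage 17, with 1 cell in the first library and 14 in the second. *Lk*, the diuretic peptide leucokinin, led 2 and 4 cells at stage 17 and none at 24 h ALH. All 8 peptides led some cell at stage 17, and 3 did so at 24 h ALH.

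Counted over neurons, *Nplp1* reached the threshold in 1 of 263 (0.380%) and 14 of 1049 (1.33%) neurons of the stage 17 libraries. It did so in 0 of 219 and 0 of 421 neurons at 24 h ALH, where the limit for a count of 0 is 1.37% and 0.713%, so the first stage 17 library and the 24 h libraries could not be told apart at this depth. *Dh31* reached it in 1.90% and 0.953% of the stage 17 neurons and in 4.11% and 2.61% of those at 24 h ALH. *AstA*, the precursor of allatostatin A, reached it in 7 cells at stage 17 and 1 at 24 h ALH, and *Lk* in 6 and 0. As the rule used these levels, the differences are described and not tested.

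**Figure D1:**
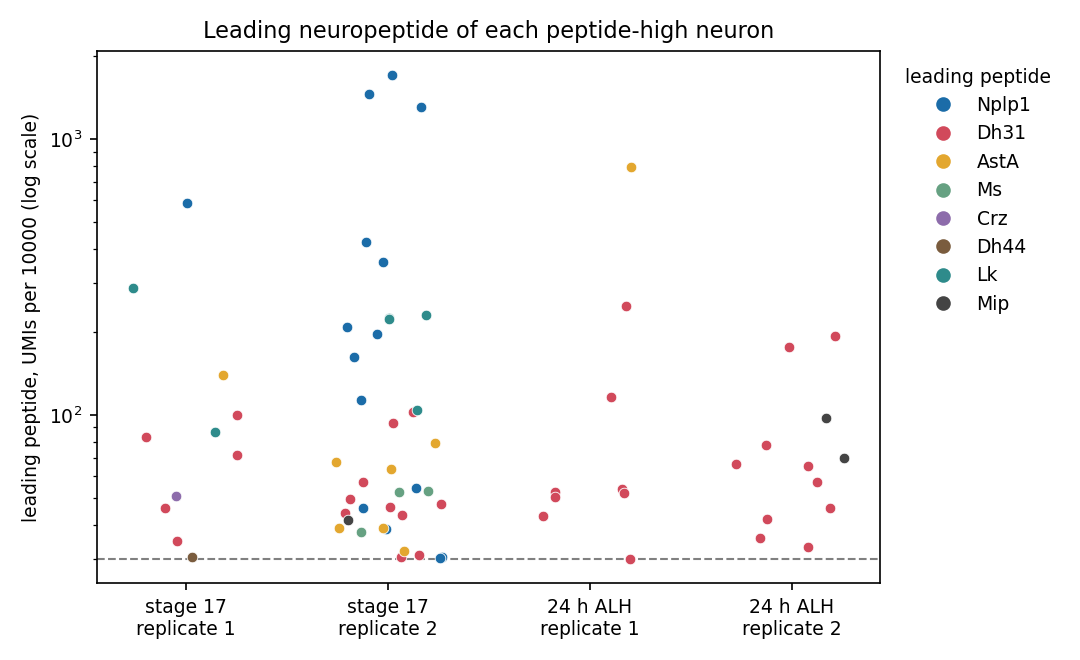
Level of the leading peptide in each of the 70 peptide-high neurons, in UMIs per 10000 UMIs of the cell on a log axis, by library; each point is a cell, coloured by its leading peptide, and the dashed line marks the threshold of 30. *Nplp1*-led cells (blue) span 30.2 to 1712 and all lie in the stage 17 libraries, whereas *Dh31*-led cells (red) lie between 30.1 and 249 in all 4 libraries.

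The highest levels were those of *Nplp1*, which encodes a precursor of several peptides found in thoracic neurons among others. Its 15 cells ran from 30.2 to 1712 UMIs per 10000 with a median of 196, and the top cell held 1597 *Nplp1* UMIs, or 17.1% of its RNA. *Dh31*-led cells lay lower and closer together, at 30.6 to 103 at stage 17 (median 47.4) and 30.1 to 249 at 24 h ALH (median 53.0). The *Dh31* levels thus overlapped between stages.

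*AstA*-led cells lay between 32.2 and 139 at stage 17 (median 63.7), and the lone 24 h ALH cell reached 796, from 1527 *AstA* UMIs. *Lk*-led cells ran from 86.6 to 290 (median 224). The few cells led by *Ms*, the muscle-relaxing peptide myosuppressin, were at 37.5, 52.5 and 53.1. *Crz*, the gonadotropin-releasing hormone-related peptide corazonin, reached 51.0 in its cell, and *Dh44*, a corticotropin-releasing factor-like hormone, 30.6. *Mip*, encoding myoinhibitory peptides, stood at 41.4, 69.5 and 97.7. Over all members the leading peptide was 0.301 to 17.1% of the RNA of a cell, with a median of 0.605%. Members held 808 to 63075 UMIs, 2 of them fewer than 1000, and the smallest leading count was 3 UMIs.

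On BDGP6 (dm6), *Dh31* lies on chromosome arm 2L (8491868 to 8506845), *Nplp1* on 2R (25032377 to 25040377), and *AstA* (24760530 to 24765071), *Ms* (24341551 to 24343825), *Crz* (14314854 to 14315716) and *Dh44* (9638182 to 9650706) on 3R. *Lk* (14560139 to 14560764) and *Mip* (17344947 to 17349666) lie on 3L.

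Peptide RNA outside these neurons was low. Among 41 cells with *repo* and no *nSyb*, 1 UMI of the 8 peptides was found in all, and none reached the threshold. In 1174 cells with *dpn*, the level of each peptide over the cells of a library was at most 3.06 UMIs per 10000, and 6 such cells held a peptide at 30 or more, up to 187. In the other neurons it was at most 1.29. The neurons below the threshold of the rule are by construction free of such levels, so the *repo* and *dpn* cells are the background here.

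Most members were high in a single peptide. Of 51 peptide genes examined, 57 of the 70 cells had only their leading peptide at 30 or more UMIs per 10000, and 13 had a further one. In 3 cells the further peptide was another of the 8, and in 12 it lay outside them. The largest combination held genes of the ecdysis system, whose neurons release crustacean cardioactive peptide (*CCAP*) with bursicon (*Burs* and *Pburs*) and myoinhibitory peptides. A 24 h ALH cell had *Mip* at 69.5, *Dh31* at 39.0, *CCAP* at 59.6, *Burs* at 95.1, *Pburs* at 37.6, *AstC* at 92.9 and *AstCC* at 154 UMIs per 10000. A stage 17 cell had *Dh31* at 93.6, *Mip* at 52.3, *CCAP* at 51.8 and *Burs* at 79.1. The pair of cells shared *Dh31*, *Mip*, *CCAP* and *Burs* across the stages, and only the older one passed the threshold for *Pburs*, *AstC* and *AstCC*.

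Some combinations carried a second peptide above the leading one, because the search list was wider than the rule. The *Dh44*-led cell had *Capa*, encoding capability peptides, at 257 UMIs per 10000 (143 UMIs) against 30.6 of *Dh44*. A *Dh31* cell at 103 had *NPF*, the feeding-related neuropeptide F, at 645. A *Mip* cell at 41.4 had *CCHa2*, an insulin-regulating peptide, at 494 and *AstC*, an inhibitory allatostatin, at 262. In these cells the rule picked the lesser of their peptides.

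The 24 h *AstA* cell had *Dh31* at 268. Among *Nplp1*-led cells, one at 425 had *FMRFa*, a peptide of thoracic neurons that receive a bone morphogenetic protein (BMP) signal, at 212, and one at 209 had *AstC* at 31.9. *Dh31* cells at 82.8 in stage 17 and at 116 at 24 h ALH had *spab* at 34.7 and 51.6. At 24 h ALH, further *Dh31* cells had *FMRFa* at 89.6 and *sNPF*, short neuropeptide F, at 42.7, beside *Dh31* at 194 and 33.1. An *Ms* cell at 53.1 had *Proc*, proctolin, at 30.8. The rule did not take every peptide neuron: 88 of the 1882 other neurons had an unlisted peptide at 30 or more, led by *Proc* in 18, *Nplp2* in 15 and *Pdf*, the circadian pigment-dispersing factor, in 12.

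The *Nplp1*-led cells differed in how many of their known fate factors were found. *dimm*, *ap*, *eya* and *kn* (also called *collier*) are the genes known to specify thoracic and dorsal *Nplp1* neurons. In 7 of the 15 cells all 4 were found, and *Nplp1* was at 209 to 1712 UMIs per 10000 (median 589). In the other 8 cells *Nplp1* was at 30.2 to 196 (median 50.03), and 6 of these had none of *dimm*, *ap* and *eya*. The levels formed a continuous range, with neighbours at 196 and 209 on either side, and *Nplp1* itself chose the cells. The cells with all 4 genes were also deeper, with a median of 9598 UMIs (3717 to 50202) against 3973.5 (3094 to 6574), and the deepest of all was the cell at 209. The part of depth in finding all 4 genes was not tested.

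Per 10000 UMIs, the 7 cells held more RNA of 5 genes of the peptide machinery than the other 8. The prohormone convertase gene *amon* was at 19.0 against 3.06 in the other 8, its chaperone *7B2* at 19.5 against 3.06, and the dense core vesicle protein gene *IA-2* at 80.9 against 27.9. The genes of both amidating enzymes followed, with *Phm* at 3.66 against 0.557 and *Pal2* at 11.1 against 1.39. The thoracic Hox gene *Antp* was at 23.6 against 5.01. These are sums over few cells, 14 of the 15 from 1 library, and were not tested.

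**Figure D2:**
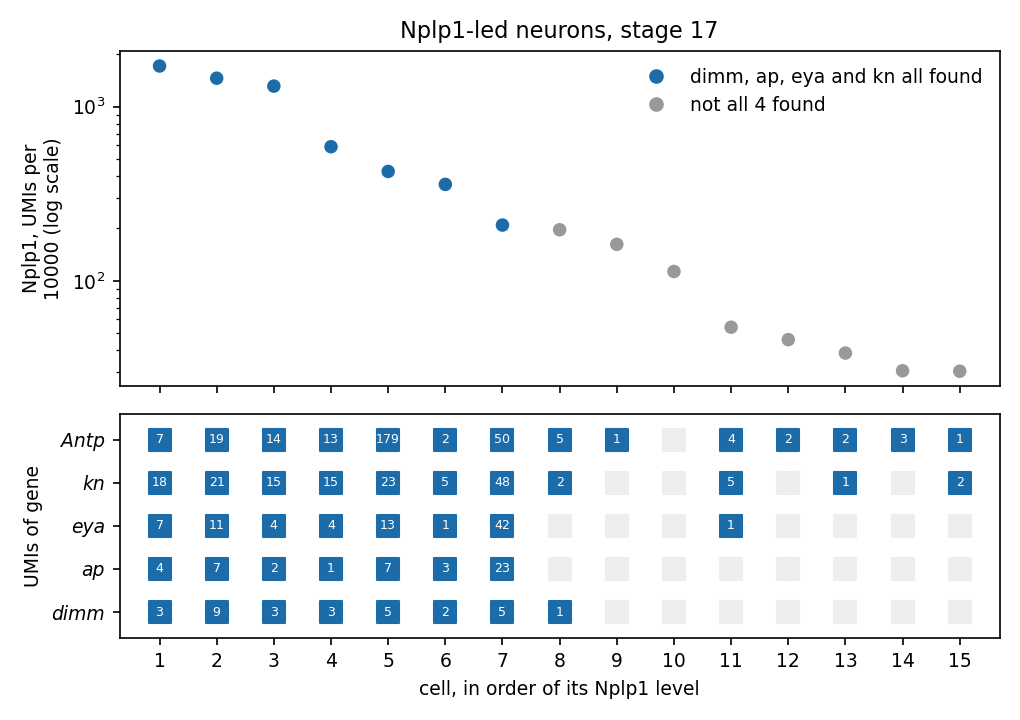
Upper panel, *Nplp1* in UMIs per 10000 on a log axis in the 15 *Nplp1*-led cells, in order of that level, blue where *dimm*, *ap*, *eya* and *kn* were all found and grey where they were not; lower panel, the UMIs of 5 identity genes in the same cells, with empty squares at 0. The 7 blue cells lie at or above 209 and the 8 grey cells at or below 196.

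*Antp* was found in 14 of the 15 *Nplp1*-led cells (19.3 UMIs per 10000 over all of them) and *Ubx*, the Hox gene of the posterior thorax and anterior abdomen, in 12 (16.6). *kn*, a COE factor, stood at 9.92. *slou*, encoding the homeodomain protein Slouch, was found in 10 (4.99) and *slp1*, a forkhead factor gene, in 7 (2.05). Most of these cells thus carried a thoracic or anterior abdominal Hox gene. The levels leaned on single cells. Of the UMIs of all 70 members, a single *Nplp1*-led cell held 179 of 531 for *Antp*. For *Ubx* a single one held 193 of 599, and for *slou* 41 of 85.

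*Dh31*-led cells were mixed in identity, and differently so in the 2 stages. At stage 17, *kn* was found in 10 of 15 cells (14.1 UMIs per 10000), *Abd-B*, the posterior abdominal Hox gene, in 8 (15.2) and *Antp* in 8 (8.12). A single cell held 149 of the 245 *kn* UMIs in the *Dh31*-led cells of the second stage 17 library. At 24 h ALH, *kn* was found in 4 of 18 cells (1.73), *Abd-B* in 5 (2.93) and *Antp* in 1 (0.0413). The cells at 24 h ALH had a median of 13475.5 UMIs and those at stage 17 of 7643. Genes of acetylcholine use were common in both: *VAChT*, the vesicular acetylcholine transporter, in 13 of 15 (8.97) and 14 of 18 (4.70), and *ChAT*, choline acetyltransferase, in 11 of 15 (5.05) and 14 of 18 (3.14). Both were also found in 66.7% of the *Nplp1*-led cells, so finding them did not set the *Dh31* cells apart. *sNPF* was found in 7 of the 18 cells at 24 h ALH (5.24 UMIs per 10000), and *Vmat*, the vesicular monoamine transporter, in 0 of 18.

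The remaining sets were small but had their own combinations. *VGlut*, the vesicular glutamate transporter, was found in 5 of 7 *AstA*-led cells at stage 17, at 30.7 UMIs per 10000, and of these a cell with 133 UMIs and one with 53 held nearly all. *Ubx* was at 12.9 in these 7 cells and at 30.2 in the 24 h *AstA* cell. *Lk*-led cells held *Gad1*, which makes GABA, in 4 of 6 (21.9) with *VGAT*, its vesicular transporter, in 4 (2.84). The 6 counts of *Gad1* UMIs were 40, 0, 2, 51, 0 and 138, so 3 cells carried most of it.

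*Lk*-led cells also held both abdominal Hox genes, *Abd-B* in 5 of 6 (22.6 UMIs per 10000) and *abd-A* in 5 of 6 (10.6). The cell with 63075 UMIs held 200 of 239 *Abd-B* and 83 of 112 *abd-A* UMIs, so these levels are mostly its own. *twit*, a target of the BMP receptor Wishful thinking, was found in 4 (9.37), *Tdc2*, the tyrosine decarboxylase of octopamine neurons, in 5 (3.31), and the homeobox gene *lbl* in 3 (4.64). No cell led by another peptide had *lbl*. The shallowest *Lk* cell, with 7 *Lk* UMIs among 808, had none of the genes named here, and the member marked as a doublet was an *Lk* cell with 13745 UMIs.

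The *Crz* cell carried the serotonin set, with *Vmat* at 91.1 UMIs per 10000, *Trh*, tryptophan hydroxylase, at 43.3 and *Ddc*, dopa decarboxylase, at 26.3, together with *Antp* and *Ubx* at 24.7 each. The *Dh44* cell had *kn* at 28.8, the labial segment Hox gene *Scr* at 14.4 and *VAChT* at 17.999. *dimm* was found in 14 of the 70 cells, 8 of them led by *Nplp1* and 3 by *Lk*, and in 1 of 33 led by *Dh31*. It was found in 32 of the 1882 other neurons, whose median depth per library was 4285 to 17281.5 UMIs against 5556 to 13972 in the members. Its counts were too low for the test, and it was called higher in peptide-high neurons when no filter on low counts was used.

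**Figure D3:**
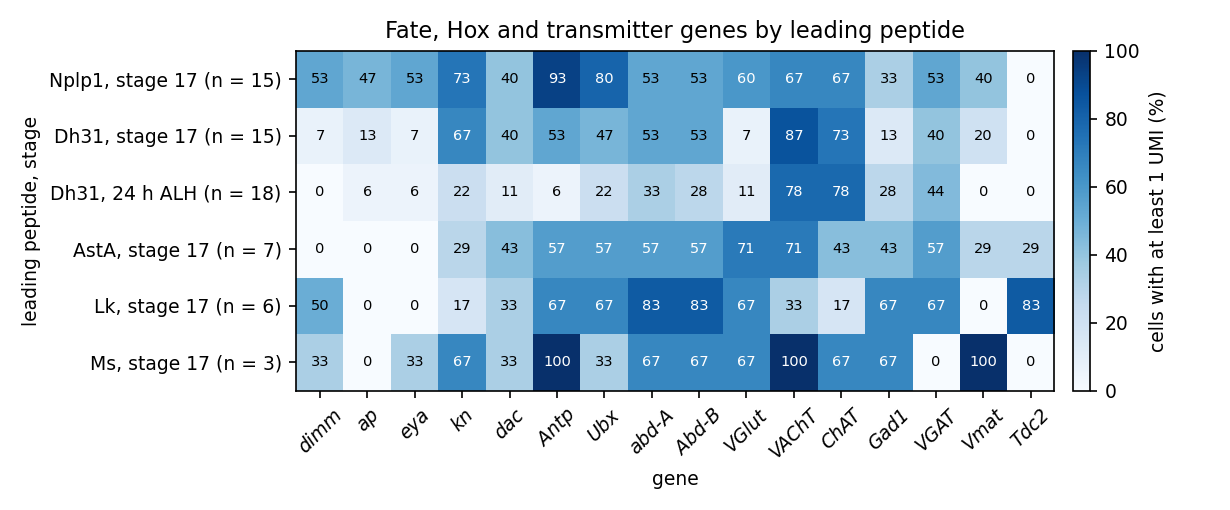
Percent of cells with at least 1 UMI of 16 fate, Hox and transmitter genes (columns) for each leading peptide and stage with 3 or more cells of that peptide (rows, with the number of cells); darker blue is a higher percent, printed in each square. *Antp* is found in 14 of 15 *Nplp1*-led cells and in 1 of 18 *Dh31*-led cells at 24 h ALH.

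Peptide-high neurons were then compared with the other neurons of the same libraries in genes the rule did not use. They carried more RNA of 7 of the 14 genes tested for peptide processing and dense core vesicles, and the other 7 did not pass the test. *IA-2* rose 1.31 on the log2 scale, *amon* 1.70, *7B2* 1.24 and *Pal2* 1.37. UMIs were summed per library and class, without the 10 rule genes, and scaled to CPM (counts per 1000000), and edgeR fitted the class with the library as a block. Of 5578 genes, 94 had a Benjamini-Hochberg adjusted p under 0.05 (1.69%), 44 higher (0.789%) and 50 lower (0.896%) in peptide-high neurons. Of the 14 measured genes of a list of 18 for peptide processing and dense core vesicles, 7 were higher and none lower, and the median of the 14 was 0.93 on the log2 scale against -0.07 over all genes.

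*IA-2*, whose product spans the dense core vesicle membrane, was at 3370, 7583, 12262 and 8769 CPM in the peptide-high cells of the first and second stage 17 and the first and second 24 h libraries. In the other neurons of the same libraries it was at 1274, 3443, 4065 and 4089 CPM. It was more than 2-fold higher in each library (log2 1.31, SE 0.14, edgeR adjusted p = 0.000179).

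*amon*, encoding prohormone convertase 2, stood at 261, 862, 762 and 258 CPM in peptide-high cells and at 119, 151, 190 and 141 CPM in the others (log2 1.70, SE 0.26, edgeR adjusted p = 0.00402). Every peptide-high value exceeded every other value. *7B2*, its chaperone, was at 799, 1270, 1487 and 954 CPM against 382, 434, 542 and 522 (log2 1.24, SE 0.17, edgeR adjusted p = 0.000813), again with no overlap. *Pal2*, a lyase of the amidation step, was at 276, 591, 453 and 310 CPM against 126, 145, 181 and 171 (log2 1.37, SE 0.22, edgeR adjusted p = 0.00305). For each of these genes the classes were apart in every library, and the calls held in all 17 alternative analyses.

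The other members of the list that rose were smaller or less stable. *Phm*, the hydroxylase that acts before Pal2, was at 290, 244, 158 and 96.7 CPM in peptide-high cells and at 150, 87.3, 90.1 and 75.4 in the others (log2 0.96, edgeR adjusted p = 0.0470). It was higher in each library, and its call was lost in 8 of the 17 alternatives, among them those without the first or the second stage 17 or the first 24 h library. *Sytbeta*, a synaptotagmin, was at 683, 517, 264 and 116 CPM against 354, 255, 84.3 and 63.9 (log2 1.12, edgeR adjusted p = 0.0102). *Sytalpha*, a synaptotagmin placed on dense core vesicles, was at 87.1, 192, 67.9 and 58.0 CPM against 33.2, 50.3, 40.0 and 31.0 (log2 1.35, edgeR adjusted p = 0.0299), and without the second stage 17 library it was no longer called. The carboxypeptidase gene *svr* was at 261, 404, 400 and 193 CPM against 193, 272, 139 and 131 and missed the threshold (log2 0.79, edgeR adjusted p = 0.0988).

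On BDGP6, *amon* (26697697 to 26714159), *7B2* (5376780 to 5377975) and *Antp* (6896253 to 6999228) lie on 3R, *IA-2* (1008378 to 1048053), *CG4577* (1134693 to 1141156) and *dimm* (21331756 to 21342155) on 2L, *Pal2* (23688077 to 23690838) on 2R and *br* (1575132 to 1664869) on X.

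**Figure D4:**
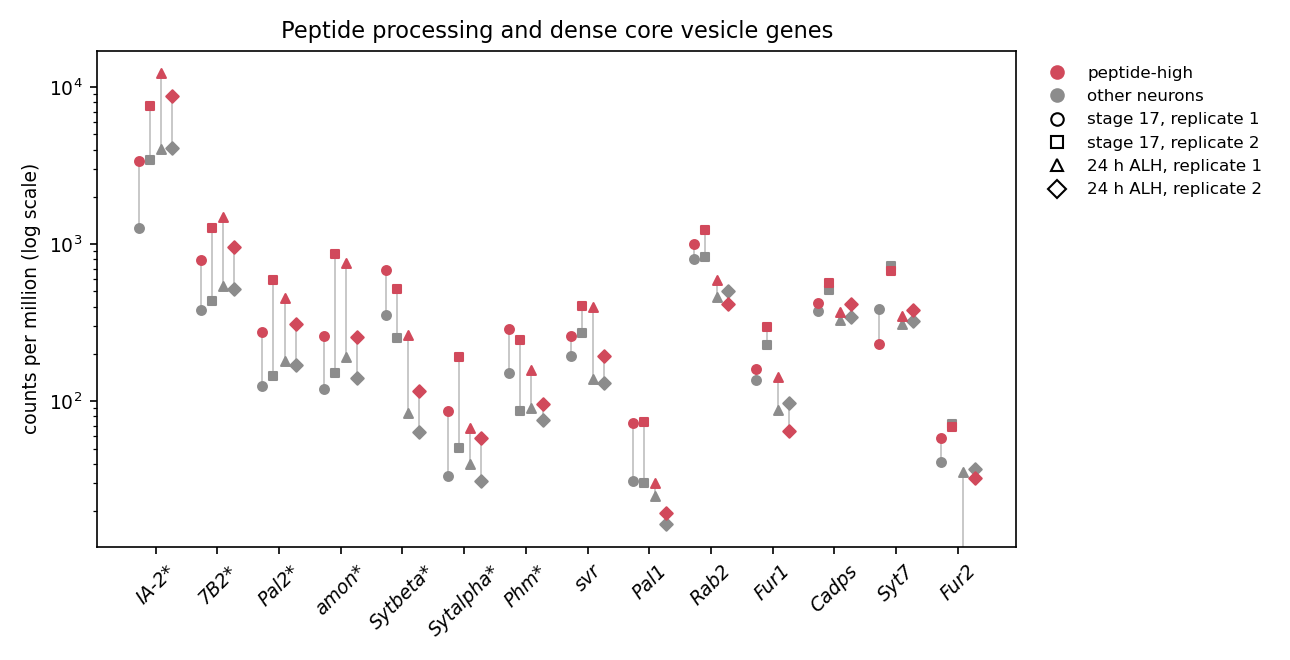
CPM on a log axis of the 14 measured processing and vesicle genes in the 4 libraries, red for the summed peptide-high neurons and grey for the summed other neurons; an asterisk marks an edgeR adjusted p under 0.05, and *Fur2* in the first 24 h library is at 0 in peptide-high cells and off the axis. The red points of *IA-2*, *7B2*, *amon* and *Pal2* lie above the grey points in each library.

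Of 31 genes for entry into the endoplasmic reticulum (ER) and early secretion, which all secreted proteins use, none passed the edgeR test (median log2 0.16). At a threshold of 100, 4 of them did (*CrebA*, *Pdi*, *SsRbeta* and *TRAM*), and without the second 24 h library 2 did (*CrebA* and *SsRbeta*). Nor did any of 12 unlisted peptide genes (median 0.88), 17 peptidergic fate genes (median -0.22), 6 Hox genes or 10 pan-neuronal markers (median 0.17). Of 17 genes of synaptic release only *Fife*, encoding an active zone scaffold, was called, at 523, 992, 317 and 239 CPM against 251, 575, 129 and 141 (log2 0.96, edgeR adjusted p = 0.0136). It was higher in every library, and it was not called without the first 24 h library.

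Among 23 peptide receptor genes, 3 were higher and none lower (median 0.60). *AstC-R2*, a receptor of allatostatin C, was at 189, 318, 189 and 181 CPM in peptide-high cells against 108, 169, 76.6 and 65.5 (log2 1.12, edgeR adjusted p = 0.0131). *SPR*, the receptor of sex peptide and of the Mip peptides, was at 683, 313, 445 and 161 CPM against 292, 220, 88.3 and 77.7 (log2 1.26, edgeR adjusted p = 0.0285). Both were higher in each library. *rk*, the bursicon receptor gene, was at 43.6, 14.8, 45.3 and 51.6 CPM against 6.35, 8.76, 4.05 and 4.60 (log2 2.43, edgeR adjusted p = 0.0323), from only 6 of the 70 cells. Without the second 24 h library none of these receptors was called, without the first only *AstC-R2* was, and without the first stage 17 library *SPR* was not.

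Other genes of large rise were *CG4577*, at 610, 564, 370 and 522 CPM against 107, 175, 153 and 125 (log2 1.87), and *CG1275* (*Cyt-b561-1*, a cytochrome b561), at 189, 199, 106 and 96.7 CPM against 52.2, 38.1, 27.0 and 27.97 (log2 2.04). The 2 genes did not overlap between the classes and were called in all 17 alternatives. *Ddc* was at 436, 66.5, 151 and 155 CPM against 116, 43.9, 69.0 and 38.4 (log2 1.40), the single call among 12 transmitter genes. *Wnt4*, a secreted signal, was at 1757, 997, 370 and 239 CPM against 606, 540, 142 and 106 (log2 1.24). Both were higher in every library. *Ddc* was not called at thresholds of 20 and 100. In the members of the first stage 17 library, the *Crz* cell held 17 of its 30 UMIs. *Wnt4* was not called after thinning to 1000 UMIs.

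The largest rises rested on few cells. *CG5160* was at 87.1, 101, 75.5 and 25.8 CPM in peptide-high neurons against 3.53, 11.8, 4.72 and 5.84 (log2 3.33) and was found in 9 of the 70 cells. *slp1* was at 145, 54.2, 15.1 and 12.9 CPM against 7.06, 4.21, 8.99 and 2.12 (log2 3.15) and was found in 11. Both were called in every alternative in which they were tested. Further named rises were *CG13248* (*CAT-4*, 1.70), *CG13408* (1.62) and the potassium channel gene *Elk* (1.60), and these were less stable. *Elk* was not called without the first or without the second 24 h library, nor at thresholds of 20 and 100. *CG13248* was not called without the second stage 17 library, with *Dh31*-led cells only or by DESeq2, and *CG13408* not without the second 24 h library.

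The named falls included genes known from other cells. *E(spl)m6-BFM*, a Notch target of the Enhancer of split complex, fell by 6.71 on the log2 scale, from 12.7, 15.7, 620 and 1754 CPM in the other neurons to 0, 2.46, 15.1 and 0. *Jon65Aiv*, a digestive protease gene of the midgut, was at 5.65, 10.2, 21.8 and 422 CPM in the others and at 0, 0, 15.1 and 12.9 in peptide-high cells. *CG13044* was at 26.1, 76.6, 600 and 103 CPM in the others against 0, 17.2, 15.1 and 6.45. For these genes the other neurons varied more between libraries than the peptide-high ones, and were highest at 24 h ALH.

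The remaining named falls, *CG12239*, *CG7203*, *CG13043*, *Scp2*, *Ance*, *fkh* and *CG13060*, fell by 2.97 to 4.15 on the log2 scale. Summed markers of several other cell types were lower in peptide-high neurons too, but not those of all. The summed level of 12 midgut markers was 0 to 0.451 UMIs per 10000 in peptide-high neurons and 0.0858 to 8.70 in the other neurons of the 4 libraries. Progenitor markers were at 0.481 to 3.60 against 1.47 to 27.7, and muscle markers at 0.376 to 4.69 against 1.43 to 10.2, with *bt* and *sls*, giant muscle proteins, among the called falls in edgeR but not in DESeq2. Glial markers were at 1.81 to 8.64 against 4.57 to 13.1. Most of the sum in the members was *nrv2*, with 49 of 50, 376 of 405, 24 of 24 and 34 of 42 UMIs in the 4 libraries. *nrv2* was found in 64 of the 70 members and 1753 of the 1882 other neurons, so this sum is not a measure of glial RNA. *Eaat1*, a glial glutamate transporter, was a called fall that was lost in 9 of 16 alternatives. Among these were the analyses without the second stage 17 and the first 24 h library. *E(spl)m6-BFM* and *Jon65Aiv* were not called by DESeq2. The part of such cells or of free RNA in these falls was not tested.

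The number of calls depended on the libraries, with 156 genes without the first stage 17 library and 199 without the second. Restricted to the *Dh31*-led cells, which occur in all 4 libraries, 259 of 5126 genes were called against the other neurons (5.05%), 94 higher (1.83%) and 165 lower (3.22%), 71 of them among the 94, and *IA-2*, *7B2*, *Pal2*, *amon* and *Sytbeta* were still called.

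The members were next compared between stages, without the rule genes. In peptide-high neurons of stage 17, *Antp*, the BMP target *twit* and the secretory regulator *CrebA* were higher, and at 24 h ALH *sNPF* and the heat shock genes *Hsp67Ba* and *Hsp27* were. Of 2248 genes, 176 passed the edgeR test (7.83%), 58 higher (2.58%) and 118 lower (5.25%) at stage 17. The stages also differed in which peptide led, since 34 of the 49 stage 17 members and 3 of the 21 at 24 h ALH were led by a peptide other than *Dh31*. A change within a kind of neuron and a change in the kinds present cannot be told apart in these sums. By the study's methods, embryos were dissociated at stage 17 and larval brains at 24 h ALH. A stage difference, that of the Hox genes included, thus cannot be told apart from a difference in the tissue taken. In the other neurons 2366 of 8178 genes passed (28.9%), 927 higher (11.3%) and 1439 lower (17.6%). Among these genes, *Antp*, *twit*, *Hsp67Ba* and *Hsp27* shifted in the same direction as in the members.

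*Antp* was at 958 and 1186 CPM at stage 17 and at 33.9 and 14.98 at 24 h ALH (log2 5.45, SE 0.51, edgeR adjusted p = 0.00304). It came from 525 UMIs in 34 of 49 cells and 6 UMIs in 3 of 21. *Antp* was also called among the *Dh31*-led cells alone and in all 15 alternatives in which it was tested. The 3 other Hox genes tested had positive values too, but none passed: *Ubx* was at 1646 and 1100 CPM against 509 and 52.4, *Abd-B* at 454 and 1369 against 229 and 329, and *abd-A* at 286 and 553 against 170 and 127.

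*twit* was at 638 and 347 CPM at stage 17, from 175 UMIs in 23 cells, and at 0 in both 24 h libraries. Against a floor of 3 UMIs over the 24 h members, it was at least 32.3-fold higher at stage 17. *slou* was at 101 and 200 CPM (85 UMIs in 13 cells) against 0 and 0, at least 15.7-fold higher. *lbl* was at 101 and 109 CPM against 0 and 0, at least 9.04-fold higher, from 49 UMIs in the 3 *Lk*-led cells named above. The 6 *lbl* UMIs of the first stage 17 library all lay in the member marked as a doublet. In the second, 1 cell held 29 of the 43. Without the second 24 h library *lbl* was not called.

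*lbm*, the tetraspanin late bloomer, was at 1142 and 413 CPM at stage 17 and 17.0 and 0 at 24 h ALH (log2 6.42). *cv-2*, a BMP-binding protein, was at 470 and 188 against 0 and 29.95 (log2 4.19), *sens-2*, a zinc finger factor, at 218 and 162 against 0 and 22.5 (log2 3.84), and *CBP*, a calcium-binding protein, at 185 and 144 against 17.0 and 0 (log2 4.18). Such genes were named only where the stages did not overlap. *slou*, *lbl*, *CBP* and *cv-2* were also higher at stage 17 in the other neurons (log2 2.78, 1.89, 2.56 and 1.95). The edgeR interaction did not separate the classes for any of them (adjusted p = 0.0865, 0.140, 0.400 and 0.0706). *sens-2* was not called without the second stage 17 or the first 24 h library, and *CBP* not without the second 24 h library. *lbm* was not called at a threshold of 100. Of 6 peptidergic fate genes tested, *crol*, a zinc finger factor (log2 1.47, edgeR adjusted p = 0.0411), and *Mad*, the transcription factor of the BMP signal (log2 1.97, edgeR adjusted p = 0.0434), were higher at stage 17. *nrv2*, a sodium pump subunit counted among the glial markers although most neurons of both classes held it, was higher as well. *crol* and *nrv2* were not called without the first or without the second 24 h library, and *Mad* not without any one of the 4 libraries.

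None of the 12 processing and vesicle genes tested differed between the stages by the edgeR test (median log2 0.27). An unadjusted p under 0.05 was seen for 6 of them, and for 572 of all 2248 genes tested. Of 21 ER genes, *CrebA* alone was called. CrebA is a transcription factor that raises the genes of the secretory pathway. It was at 235 and 241 CPM at stage 17 and at 50.9 and 22.5 at 24 h ALH (log2 2.70, edgeR adjusted p = 0.0154). It was not called without the second stage 17 library or without the second 24 h library. In the members not led by *Dh31*, which are 3 cells at 24 h ALH, it was at 454 and 295 CPM at stage 17 and at 433 and 134 at 24 h ALH.

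In the other direction, *sNPF* was at 118 and 119 CPM at stage 17 and at 552 and 472 at 24 h ALH (log2 -2.10, edgeR adjusted p = 0.0141). It was the single call among 9 unlisted peptides. A single cell held 46 of its 65 UMIs in the first 24 h library and another 40 of 63 in the second, and it was not called without either of these libraries or at a threshold of 20. *Hsp67Ba*, a small heat shock gene, was at 0 at stage 17 and at 221 and 262 CPM at 24 h ALH (61 UMIs in 14 cells), at least 36.8-fold lower at stage 17. *CG10638* was at 0 against 127 and 127 CPM, at least 19.3-fold lower. Neither gene was found in the members of either stage 17 library, but the other neurons of each stage 17 library held some RNA of both. *CG10638* was not called without the second stage 17 or the second 24 h library.

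*Set*, a histone chaperone, was at 33.6 and 2.53 CPM against 272 and 277 (log2 -5.10), *CG9705* at 16.8 and 5.07 against 255 and 262 (log2 -5.10), and *CG2862* at 0 and 10.1 against 195 and 307 (log2 -4.77). *SmD1*, a spliceosome protein, was at 16.8 and 0 against 110 and 120 (log2 -5.27). *Rpi*, a pentose phosphate enzyme, and *CG6180* were lower by like amounts (log2 -4.92 and -4.86). All 6 were also lower at stage 17 in the other neurons (log2 -3.82 to -4.71), and the edgeR interaction did not separate the classes (adjusted p = 0.655 to 0.984). *Set*, *CG9705*, *CG2862* and *SmD1* were not called among *Dh31*-led cells alone, *SmD1* not without the second stage 17 or first 24 h library, *Rpi* not without either stage 17 library, and *CG6180* not without the first. Of 9 tested genes of a heat stress list, which does not hold *Hsp67Ba*, *Hsp27* (log2 -2.28) and *Hsp70Ab* (log2 -4.28) were called, and both were lower at stage 17. Neither was called without the second stage 17 library, nor *Hsp27* without the second 24 h library. *Hsp27* and *Hsp70Ab* were also lower at stage 17 in the other neurons (log2 -2.46 and -5.90). The edgeR interaction did not separate the classes for either (adjusted p = 0.811 and 0.673). The summed level of the heat stress list was 45.2 and 47.5 UMIs per 10000 in stage 17 members and 56.2 and 92.8 in those at 24 h ALH. The part of dissociation stress in the stage differences was not tested.

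Without the second stage 17 library 106 genes were called, without the first 24 h library 91 and without the second 54. Among *Dh31*-led cells alone, 13 of 1913 genes were called, 3 higher and 10 lower at stage 17.

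Whether the stage difference in peptide-high neurons differed from that in other neurons was tested as the interaction of class and stage. For 6 genes of ER entry and folding the stage 17 effect was more positive in peptide-high neurons than in the others. Of 6568 genes, 157 passed the edgeR test (2.39%), 46 with a stage 17 effect more positive in peptide-high cells (0.700%) and 111 more negative (1.69%). Of 31 ER genes, 6 were called, all more positive, 30 had positive values, and the median was 0.95 against -0.08 over all genes. The calls fell to 2 without doublets and with DESeq2, and to 0 at a threshold of 100 and after thinning. Within the other neurons 10 of the 31 were lower at stage 17 and none higher, and within the members 1 of 21 was higher and none lower.

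*CrebA* was at 186, 221, 45.7 and 19.3 CPM in the peptide-high cells of the 4 libraries, stage 17 first, and at 21.7, 15.1, 22.5 and 21.2 in the other neurons (log2 difference 3.08, SE 0.63, edgeR adjusted p = 0.000262). It was thus highest in the stage 17 members. *Gp93*, the ER form of Hsp90, was at 146, 214, 107 and 103 CPM against 79.2, 99.3, 187 and 200 (1.91, SE 0.44, edgeR adjusted p = 0.00194). *Pdi*, protein disulfide isomerase, was at 265, 272, 243 and 231 CPM against 108, 98.9, 228 and 252 (1.41, SE 0.39, edgeR adjusted p = 0.0197). For *Gp93* and *Pdi* the other neurons rose to the level of the members, or past it, at 24 h ALH.

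*Hsc70-3*, the ER chaperone BiP, was at 491, 694, 434 and 321 CPM against 410, 388, 503 and 639 (1.18, edgeR adjusted p = 0.0234). *Sec61alpha*, the channel of the translocon, was at 212, 137, 83.7 and 90.0 CPM against 91.1, 62.1, 94.1 and 124 (1.5, edgeR adjusted p = 0.0495), and *SsRbeta*, a part of the translocon-associated complex, at 318, 160, 175 and 141 against 64.2, 65.8, 129 and 129 (1.41, edgeR adjusted p = 0.0360). Both were above the other neurons at stage 17 in each library. None of the 6 was called without the second stage 17 library or without the second 24 h library, and *CrebA* alone was called without the first 24 h library. *Sec61alpha* and *SsRbeta* were not called without the first stage 17 library either. Of 15 alternatives, *Sec61alpha* was called in 2 and *SsRbeta* in 4. With *Dh31*-led cells only, the median of the 31 genes was 0.43, and *CrebA* alone was called, from 0, 24, 0 and 0 UMIs in the 4 libraries, 17 of them in 1 cell.

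Synaptic release genes lay on the other side. All 17 had a negative interaction (median log2 -0.71), and 1, *Syt1*, the calcium sensor of vesicle fusion, passed the test. It was at 1339, 1658, 1697 and 1658 CPM in peptide-high cells and at 1361, 2137, 957 and 970 in the others (-1.01, SE 0.27, edgeR adjusted p = 0.0173). Its level in the members was nearly level across stages, while that of the other neurons was lower at 24 h ALH. With *nSyb* and *dpn* in the gate, other neurons at 24 h ALH also held more progenitor RNA (12.4 and 27.7 UMIs per 10000 of 5 markers) than those at stage 17 (1.47 and 1.74). Its part in these differences was not tested. *Syt1* was not called without the second stage 17, the first 24 h or the second 24 h library. The median of the 17 genes was -0.45 under upper-quartile scaling, which moved the median of all genes from -0.08 to 0.14, and it turned to 0.11 when cells were thinned to 1000 UMIs.

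Of 7 Hox genes tested, 2 were called, in opposite directions. *Antp* was at 756, 1087, 30.4 and 12.9 CPM in peptide-high cells and at 869, 906, 146 and 232 in the others (3.21, SE 0.47, edgeR adjusted p = 1.14e-08). *Abd-B* was at 358, 1254, 205 and 283 CPM against 961, 853, 86.8 and 54.9 (-2.11, SE 0.48, edgeR adjusted p = 0.0157). Both genes were lower at 24 h ALH in the other neurons, and in the members the fall of *Antp* was steeper. Neither was called without the second stage 17 or without the second 24 h library. Called fate genes were *ap* (4.0) and *svp*, encoding a nuclear receptor (2.65), and called transmitter genes *prt*, encoding the transporter Portabella (2.01), *Tdc2* and *Trh*. Of 28 and 1 *Trh* UMIs in the stage 17 members, the single *Crz* cell held 28. None of these fate and transmitter genes was called without the second stage 17 library. Of 22 unlisted peptides, *CCHa2*, *Pdf* and *CCAP* were called. *CCHa2* was at 0, 1052, 0 and 0 CPM in the members, where the *Mip*-led cell named above held all 453 UMIs, *Pdf* at 0, 34.8, 0 and 0, and *CCAP* at 0, 265, 0 and 540. These rest on single cells or libraries, and none was called without the second stage 17 library or by DESeq2.

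**Figure D5:**
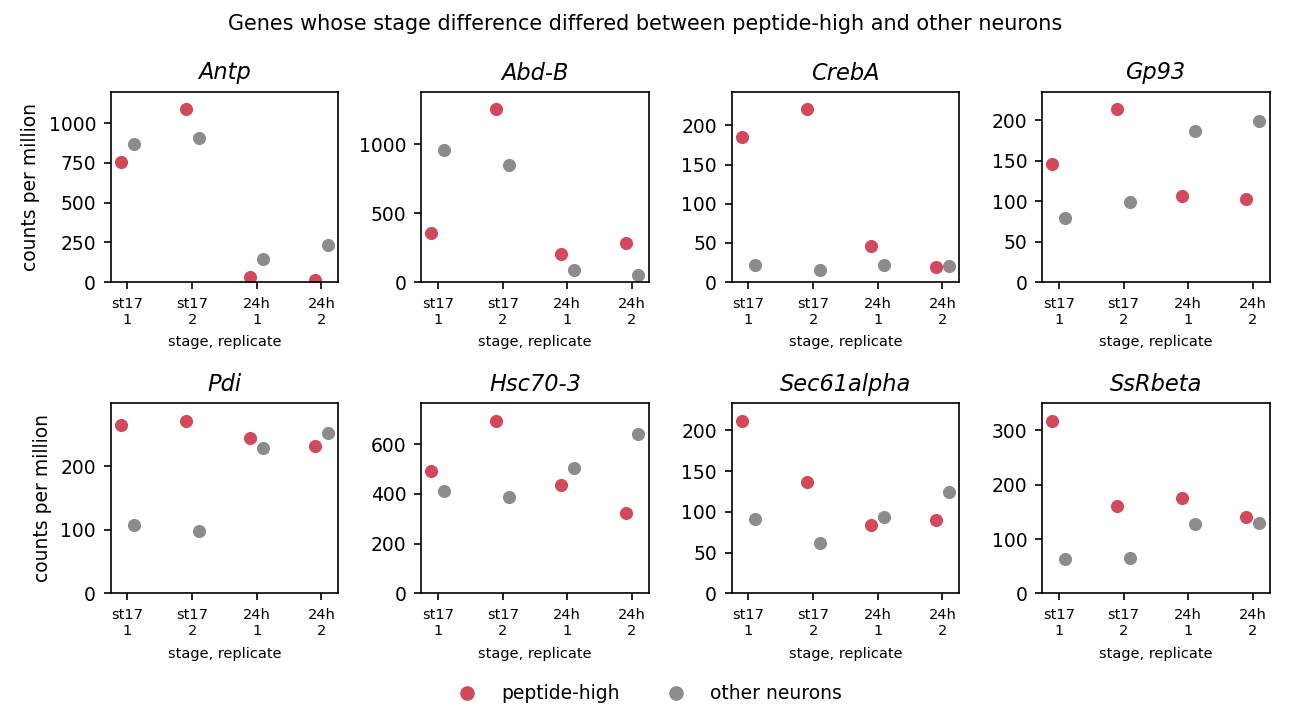
CPM of 8 genes called in the interaction, in the summed peptide-high (red) and other neurons (grey) of each library, with stage 17 replicates on the left and 24 h ALH replicates on the right of each panel and linear axes from 0. *CrebA* is at 186 and 221 in the stage 17 members and at or below 45.7 elsewhere, and for *Gp93* the red points lie above the grey at stage 17 and below them at 24 h ALH.

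Last, the *Dh31*-led cells were set against the other peptide-high cells within each library, the only leading peptide with enough cells in enough libraries. Of 1245 genes, 1 passed the edgeR test (0.0803%), and 96 had an unadjusted p under 0.05. It was *br*, or *broad*, a zinc finger factor of the ecdysone response. It was at 1284, 3014, 1350 and 879 CPM in *Dh31*-led cells and at 195, 681, 144 and 44.7 in the other members (log2 2.69, SE 0.35, edgeR adjusted p = 0.0210), with no overlap.

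*sNPF* was at 333, 303, 697 and 630 CPM against 0, 45.6, 72.1 and 0 and missed the threshold (log2 3.39, edgeR adjusted p = 0.0683). None of the 11 processing genes (median -0.62) or 13 ER genes (median -0.70) tested was called. The comparison set held only 1 and 2 cells in the 24 h libraries. *br* was not called without the first or without the second stage 17 library, or without the marked doublets.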

How the data were processed

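Cells were droplet libraries from fluorescence-activated sorting, and the deposited files hold raw UMI counts of 14240 genes per called cell, which the authors made with Cell Ranger (3 in the submitters' notes, 3.0.2 in the file headers) on dm6. Nothing was normalized upstream. Called cells were kept at 200 to 6000 genes and at most 5% mitochondrial UMIs. Members, gene lists and tests were chosen with earlier results of these data known. Doublets were marked with Scrublet in scanpy 1.11.5 and kept. Counts were summed per library and class, the 10 rule genes (8 peptides, *nSyb* and *dpn*) were left out, and sums were fitted with edgeR 4.0.16 in R 4.3.3 (filterByExpr, TMM scaling, robust quasi-likelihood test, Benjamini-Hochberg adjustment). The library was a block wherever both classes entered. Each comparison was scaled on its own, so the CPM of a gene differ slightly between comparisons. Gene positions are from the Ensembl annotation of BDGP6.

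Named genes were the 15 largest rises and 10 largest falls with 1 sign across the 4 libraries where the higher class averaged 50 CPM or more, the 8 largest rises and falls between stages that did not overlap, up to 6 rises for a leading peptide with at least 5 cells in at least 3 libraries, and called members of the lists. *Sytbeta*, *svr*, *Phm* and other list members are named under the last of these or as list members that missed the threshold. Alternatives were thresholds of 20 and 100, thinning to 1000 UMIs, a mitochondrial maximum of 10%, other scalings and filters, DESeq2 1.42.0, each library left out, the replicate block, *Dh31*-led cells only and the deepest cell of each library left out, the last pair chosen after seeing the data. On simulated counts with a 4-fold change, the edgeR fit recovered 89.7% of changed genes for the class comparison (5347 genes). It recovered 82.9% for the stage comparison (1963 genes) and 100% for the *Dh31* comparison (1150 genes), with 3, 5 and 8 false calls in turn. The counts were drawn at the trend of dispersion, without the further spread of single genes or of sums over few cells. These shares thus do not measure recovery in the real sums, where *sNPF* missed the threshold for *Dh31* at log2 3.39. The first, v2 stage 17 library held 62352 UMIs in peptide-high cells and the others 468874, 132942 and 160925, so the first gives the least precise values. Promoter and protein sequences were not used here.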

Additional observations from a re-analysis of the deposited data

Results flagged for a closer look

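For 4 of the genes named above, the stage difference in peptide-high neurons differed from that in the other neurons by the edgeR test of the interaction. The log2 differences, each with the stage 17 effect more positive in peptide-high cells, were 11.32 for *twit*, 3.94 for *lbm*, 3.21 for *Antp* and 2.99 for *sens-2*. *twit* was at 504 and 318 CPM in the stage 17 members, at 0 in both 24 h libraries, and at 558, 584, 165 and 190 CPM in the other neurons, so its fitted value depends on the prior count and is no bound. *lbm* was at 902, 378, 15.2 and 0 CPM in the members against 683, 514, 70.1 and 155 in the others, and *sens-2* at 172, 149, 0 and 19.3 against 60.5, 110, 47.2 and 47.7. All 3 fell further toward 24 h ALH in the members than in the other neurons, and the values of *Antp* are given above.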

How the results depend on the processing

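With 70 cells, 21 of them at 24 h ALH and most of those *Dh31*-led, the counts of called genes moved with nearly every setting. Over the named genes of the class, stage and *Dh31* comparisons and the processing list, 690 single-gene values kept their direction and side of the threshold, 69 lost the call, 1 gained it (*svr*), and 1 reversed (*CG13408* at a threshold of 100, log2 -0.32, edgeR adjusted p = 0.951). At a threshold of 20 there were 106 members (5.85% and 4.42% of neurons), and 57 genes were called between classes, 96 in the interaction and 5 for *Dh31*. At 100 there were 23 members (1.43% and 0.922%), with 146 called between classes, 26 between stages and 48 in the interaction; the *Dh31* comparison could not be fitted. With other neurons limited to peptides under 5, the members were 4.91% of stage 17 neurons. Thinning to 1000 UMIs left 11, 0 (of 227 tested by edgeR), 1 and 0 calls for class, stage, interaction and *Dh31*, and no filter on low counts 388, 339, 92 and 59. DESeq2 called 77, 108, 17 and 6. The share of class calls that were higher was 46.8%, but 57.9% at a threshold of 20, 24.7% at 100, 72.7% after thinning, 20.9% without the filter and 63.6% with DESeq2. Upper-quartile scaling called 201 genes between stages (22.9% higher against 33.0%), 121 in the interaction (54.5% higher against 29.3%) and 3 for *Dh31*. *Dh31*-led cells alone gave 259, 13 and 50 calls, the interaction without the deepest cells 95, and the *Dh31* comparison 0 without doublets and 0 at 10% mitochondrial UMIs.

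Leaving out 1 library at a time gave 86 to 199 calls between classes, 54 to 241 between stages, 3 to 145 in the interaction and 0 to 10 for *Dh31*, with 32 to 61 members, 3.62 to 4.18% of stage 17 neurons and 2.85 to 4.11% at 24 h ALH. The replicate block raised the stage calls to 319 (127 higher, 192 lower). Same-numbered libraries deviated together only weakly (r = 0.114 across 2248 genes, which are not independent) and there were 2 pairs, so the numbers were not taken to pair the libraries.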
